A study of Xenopus laevis with 27 samples.

Results

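Forkhead (fox) genes encode transcription factors that share a winged-helix DNA-binding domain, and they were followed here in tail tissue of the frog Xenopus laevis after amputation. They were taken as every gene of the count table whose symbol begins with fox, a letter and a digit, which gave 76 of 29776 genes. Xenopus laevis has a duplicated genome, and 39 of the 76 were copies on the long subgenome (.L) and 37 on the short one (.S), with both copies present for 31 genes.

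Several forkhead proteins set cell identity, among them Foxa in endoderm, notochord and floor plate and Foxj1 in cells with motile cilia. Foxi1 does so in ionocytes, the ion-transporting cells of larval frog skin. Foxa proteins open closed chromatin ahead of other factors. Foxc, Foxd and Foxf proteins act in mesenchyme, vessels and stroma, Foxb1 and Foxd3 in the nervous system and neural crest. Foxo proteins leave the nucleus when insulin signalling is active, and Foxm1 drives genes of mitosis.

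All tails were amputated, and RNA was taken at 9 times with n = 3 libraries per time, called A, B and C. These were 0, 30, 60 and 90 min (written mpa, for minutes post amputation), 3 and 6 h (hpa), and then day 1, day 3 and day 7 (dpa). A library pooled RNA of 20 embryos at the regenerative stage. The labels name the tissue as tail and give no strain, genotype or age, and although the 3 libraries of each time are termed biological replicates there, no clutch is named for any of them. The p-values therefore speak of library-to-library spread, which may be partly technical. In whole tissue, fewer cells of a type and less RNA per cell cannot be told apart.

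Total reads per library were 4186706 to 6332675 in 24 libraries. Library 6 hpa C had 1207557, library 90 mpa C 367958, and library 7 dpa C only 19187, of which 43 were forkhead reads. At an equal depth of 1000000 reads, 1 dpa B held reads of 16235 genes and 3 dpa B of 18672, against 19118 to 22233 in the 22 other libraries of that depth apart from 6 hpa C (18885). Against the tail label, the summed level of 32 skeletal muscle genes was 71470 to 119200 CPM (reads divided by library total and TMM factor, scaled to 1000000) at 0 mpa. That muscle sum was 3507 to 3865 at 7 dpa, and 21 of 29 tested muscle genes were lower at 3 dpa than at 0 mpa. Leukocyte genes were 279.5 to 372.2 CPM in sum at 0 mpa and 774.6 to 1137 at 6 hpa (5 of 22 tested higher), epidermal genes 2448 to 2835 and 5495 to 6391 (10 of 20 tested higher at 6 hpa), and neural genes 243.5 to 405.4 and 250 to 307.2. Erythroid genes were 1077 to 4975 CPM at 0 mpa, 7961 to 11720 at 30 mpa and 852.3 to 1410 at 3 dpa. The part of these shifts in the forkhead values was not tested.

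Of the 76 forkhead genes, 56 passed the filter on low counts and were tested. These had 52 to 30691 reads over all libraries. The other 20, with 2 to 75 reads, included foxa4.L, foxa4.S, foxb2.S, foxd4l1.1.L, foxd4l1.1.S, foxe1.L, foxe3.S, foxf2.L, foxh1.L, foxi4.1.L, foxi4.2.S, foxl1.S, foxl2.L, foxn1.L, foxn1.S, foxn4.S, foxo6.L, foxp3.L and foxp3.S. The filter keeps a gene that is high at a single time, so the tested genes are not a picture of the whole family.

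Over the 9 times, 19 of the 56 tested forkhead genes (33.9%) changed in the joint test (edgeR's quasi-likelihood test, adjusted p under 0.05), where 15.8% of all 22268 tested genes did. Adding 11 comparisons of one time with another brought the forkhead genes with any call to 22, and 34 had none. The share of all genes with any call was not computed, so the 22 are not read as particular to forkhead genes. The highest level of the 19 fell on no single time. By reads pooled over the libraries of a time, 1 of the 19 peaked at 0 mpa, 9 within the 3 times from 30 to 90 mpa, 1 at 3 hpa, none at 6 hpa or 1 dpa, 5 at 3 dpa and 3 at 7 dpa.

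Each later time was compared with 0 mpa, and these 8 comparisons share the 0 mpa libraries. At 30 mpa no forkhead gene was called higher or lower, where 0.377% of all tested genes were higher and 0% lower. DESeq2 called 0 as well, and 8 forkhead genes had an unadjusted p under 0.05. At 60 mpa 4 were higher (background 1.15%) and none was lower (0.00449%). At 90 mpa 9 were higher (2.62%) and 3 lower (0.754%).

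At 3 hpa 6 forkhead genes were higher (3.12%) and 3 lower (0.310%), and at 6 hpa 3 were higher (3.33%) and 1 lower (0.328%). At 1 dpa 4 were higher (2.99%) and 2 lower (1.58%), at 3 dpa 8 higher (4.24%) and 3 lower (4.98%), and at 7 dpa 4 higher (2.63%) and 1 lower (5.31%). As a share of the 56 tested, the forkhead genes called higher were 16.1% at 90 mpa and 14.3% at 3 dpa, and those called lower were 5.36% at 90 mpa, 3 hpa and 3 dpa. The median log2 fold change of the 56 was 0.64 at 60 mpa with 46 of them above 0, beside 0.01 over all genes, and at the other times it lay between 0.09 and 0.39.

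These comparisons gave 51 calls in 19 forkhead genes, of which 13 were only ever higher and 6 only ever lower. Genes called in 1 direction only were not counted over all genes. The 3 libraries of the later time did not overlap those of 0 mpa in 45 of the 51 calls. The 6 exceptions were foxq1.L and foxq1.S at 90 mpa and foxc2.S, foxd1.L, foxd1.S and foxq1.S at 7 dpa, in each of which the shallow library C lay apart from A and B. In lower calls a shallow library can fall below 0 mpa on few reads. Library 90 mpa C held 0 reads of foxd2.L and 1 each of foxd2.S and foxb1.L, and 7 dpa C held 0 of foxi1.L. Leaving out each of the 6 libraries of a comparison in turn kept 19 of the 51 calls every time and lost 32 at least once. The calls had been picked by their p-values, and such counts were not made over all called genes. They therefore describe the forkhead calls alone. A fit of the 0 and 90 mpa libraries alone by edgeR called 0 of 47 tested forkhead genes, with 14 at an unadjusted p under 0.05. The share called over all genes in that fit is not given here, so the 0 is not read as particular to forkhead genes. The cause was not tested.

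**Figure D1:**
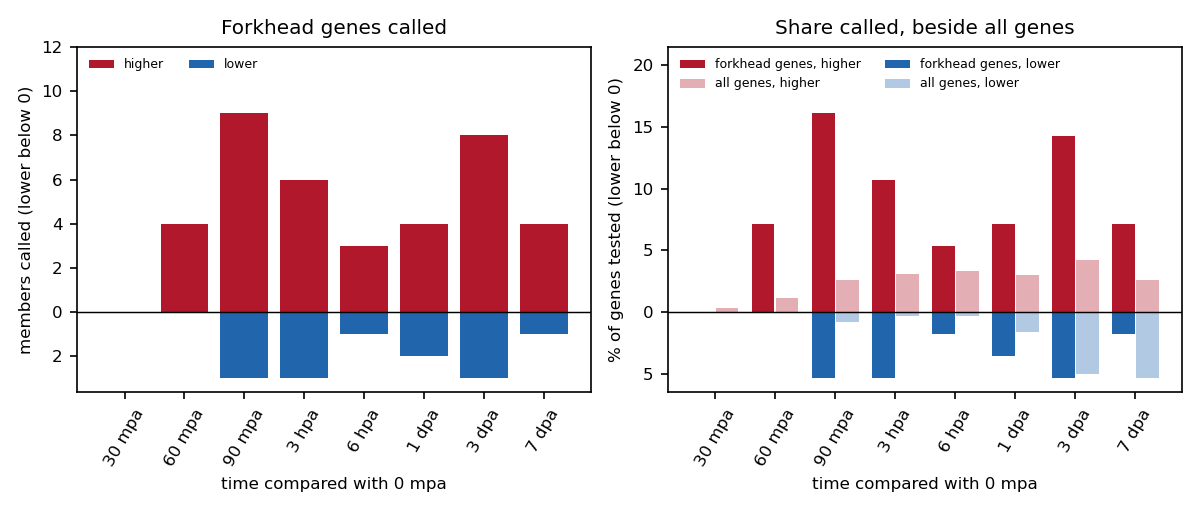
Left, number of forkhead genes called higher (red, upward) or lower (blue, downward) than at 0 mpa at each later time, out of 56 tested. Right, the same as a percentage of the genes tested, beside the percentage over all 22268 tested genes (pale bars). The forkhead bars are tallest at 90 mpa, with 9 higher, and at 3 dpa, with 8 higher.

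**Figure D2:**
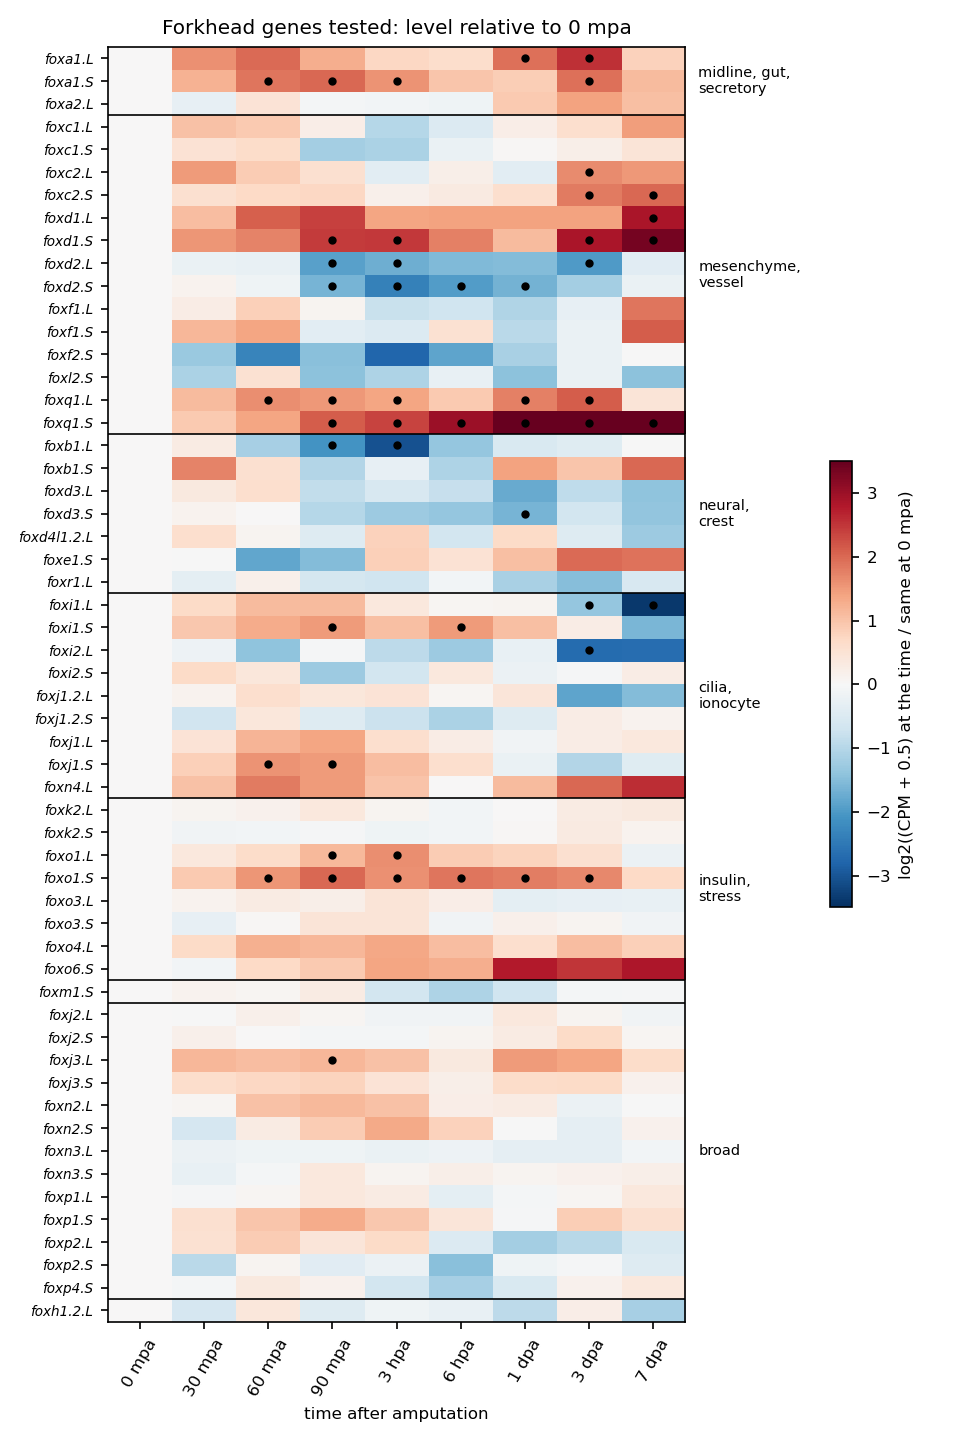
Level of each tested forkhead gene (rows, grouped by role) at each time (columns), as log2 of CPM plus 0.5 relative to 0 mpa, from reads pooled over the libraries of a time. Red is higher and blue lower than at 0 mpa, values beyond the colour scale take its end colour (foxq1.S from 1 dpa on), and a dot marks a call with an adjusted p under 0.05. The dots lie in few rows, with foxq1.S, foxq1.L and foxo1.S marked at 5 or more times.

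The steps between neighbouring later times moved few forkhead genes. From 6 hpa to 1 dpa none was called higher or lower by edgeR or DESeq2 (background 0.112% higher and 0.220% lower), and 6 had an unadjusted p under 0.05. From 1 to 3 dpa none was higher (0.130%) and 1 was lower (0.593%), foxi1.L. From 3 to 7 dpa none was higher (0.126%) and 2 were lower (0.723%), foxi1.L and foxq1.L.

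Among forkhead genes of the axial midline, gut and secretory cells, both copies of foxa1 rose. Foxa1 is a pioneer factor of endoderm and epithelia and marks the small secretory cells of larval Xenopus skin. The copy foxa1.S stood at 8.41, 18.4 and 11 CPM in libraries A, B and C at 0 mpa, at 35.9, 63.7 and 44.5 CPM at 60 mpa and at 38.7, 61.0 and 72.5 CPM at 90 mpa. All 6 libraries of 60 and 90 mpa lay above all 3 of 0 mpa. Its log2 fold change was 1.93 ± 0.39 (SE) at 60 mpa (adjusted p = 0.00114), 2.14 ± 0.40 at 90 mpa (adjusted p = 0.000227) and 1.91 ± 0.39 at 3 dpa (adjusted p = 0.000364). It was 1.58 ± 0.39 at 3 hpa (adjusted p = 0.00633), a call lost without 0 mpa A (0.103) or 0 mpa C (0.0605).

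The other copy, foxa1.L, was called only later, at 1 and 3 dpa, but its level was above the 0 mpa range before that. It stood at 9.85, 2.77 and 5.18 CPM at 0 mpa, 13.2, 58.5 and 10.6 CPM at 1 dpa and 34.7, 61.8 and 16.1 CPM at 3 dpa. The B libraries were the highest of both later times, and no library of either time fell within the 0 mpa range. The log2 fold change was 2.65 ± 0.58 at 3 dpa (adjusted p = 0.00119) and 2.19 ± 0.58 at 1 dpa (adjusted p = 0.0144). The 1 dpa call was lost without 1 dpa B (adjusted p = 0.478), 0 mpa B (0.132) or 0 mpa C (0.0719), while the 3 dpa call was kept in every leave-out. All libraries of 30 and 60 mpa lay above 0 mpa without a call, at 32.1, 18.3 and 23.6 CPM at 60 mpa. The shallow 90 mpa C held no read, and 3 and 6 hpa overlapped 0 mpa. The L to S read ratio of foxa1, by the limma F test described below, was not called over the 9 times (adjusted p = 0.723).

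The notochord and floor plate gene foxa2.L was not called, at 4.29, 4.1 and 10.6 CPM at 0 mpa in libraries B, C and A and 12.7, 18.6 and 20.5 CPM at 3 dpa in B, C and A (log2 fold change 1.45 ± 0.66, adjusted p = 0.179). The notochord gene foxa4.L had 46 reads in all and was not tested. Of 24 tested midline genes, which include shh, not and chrd and were listed apart from the forkhead genes, 9 were higher and 1 lower at 3 dpa, with a median log2 fold change of 1.01 beside 0.05 over all genes. Their summed level went the other way, from 8812 to 10860 CPM at 0 mpa to 6188 to 7087 CPM at 3 dpa. The notochord gene not.L was among the 9, at 29.3 ± 18.0 CPM (SD, n = 3) at 3 dpa against 0.072 ± 0.12 CPM at 0 mpa (adjusted p = 1.8e-05).

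Among the 14 tested forkhead genes of mesenchyme and vessels, 8 changed in the joint test, and foxq1.S had the smallest joint p of all forkhead genes (adjusted p = 1.62e-12). Foxq1 is known in the mouse from the hair shaft and from mucus cells of the stomach, and is listed here with its neighbours foxc1 and foxf2. The copy foxq1.S stood at 1.68, 2.27 and 2.59 CPM at 0 mpa, from 7, 9 and 12 reads. It stood at 3.95, 8.16 and 1.56 CPM at 30 mpa and at 8.68, 5.84 and 5.33 CPM at 60 mpa. The values at 90 mpa were 13.8, 9.49 and 0 CPM, the last in the shallow library C. At 3 hpa they were 15.4, 10.5 and 14.1 CPM, and at 6 hpa 23.0, 17.7 and 22.9 CPM. From 60 mpa on, each library lay above the 0 mpa range, other than 90 mpa C and 7 dpa C.

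The level of foxq1.S went on to 27.3, 60.9 and 43.6 CPM at 1 dpa and 64.7, 63.8 and 77.5 CPM at 3 dpa. At 7 dpa libraries A and B held 50.4 and 46.1 CPM and the shallow C held no read. The log2 fold change against 0 mpa was 2.59 ± 0.54 at 3 hpa (adjusted p = 0.000741), 3.25 ± 0.55 at 6 hpa (2.79e-05) and 4.31 ± 0.55 at 1 dpa (8.17e-08). It was 4.96 ± 0.56 at 3 dpa (adjusted p = 1.32e-09) and 4.29 ± 0.56 at 7 dpa (4.59e-08). All 5 of these calls were kept in every leave-out. The call at 90 mpa (log2 fold change 2.17 ± 0.56, adjusted p = 0.0142) was lost without 0 mpa A (0.0916), 0 mpa B (0.0616) or 90 mpa A (0.0805).

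The copy foxq1.L took another course. It stood at 28.6, 15.1 and 23.7 CPM at 0 mpa, 80.3, 64.5 and 67.0 CPM at 60 mpa, 36.8, 50.1 and 49.1 CPM at 6 hpa and 104, 76.9 and 121 CPM at 3 dpa. At 7 dpa it was at 34.8, 27 and 17.3 CPM, which overlaps 0 mpa. The gene was called higher at 60 and 90 mpa, 3 hpa, 1 dpa and 3 dpa and not at 6 hpa or 7 dpa, with a log2 fold change of 1.84 ± 0.39 at 1 dpa (adjusted p = 0.00126) and 2.16 ± 0.39 at 3 dpa (5.37e-05), both kept in every leave-out.

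The earlier calls of foxq1.L were less firm. At 60 mpa (log2 fold change 1.65 ± 0.39, adjusted p = 0.00902) the call was lost without 0 mpa B (0.181), 0 mpa C (0.0516) or 60 mpa A (0.0546). At 3 hpa (1.41 ± 0.38, adjusted p = 0.0203) it was lost without 0 mpa B (0.213), 0 mpa C (0.0719), 3 hpa A (0.0977) or 3 hpa C (0.0628). At 90 mpa (1.31 ± 0.39, adjusted p = 0.0434) only the fit without 90 mpa C kept it, and the adjusted p without the others was 0.0653 to 0.263. From 3 to 7 dpa foxq1.L fell by 1.74 ± 0.42 on the log2 scale (adjusted p = 0.0194), which was lost without 3 dpa A (0.0579), 3 dpa C (0.11), 7 dpa A (0.0902) or 7 dpa B (0.229).

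The balance between the copies was tested as log2 of the L to S read ratio within each library, which needs no scaling between libraries. Counting may have divided reads among similar copies, and lengths differ, so the change of the ratio is read here and not its level. Of 25 forkhead pairs with enough reads, 3 changed over the 9 times, beside 10.5% of all 6185 pairs by the same moderated F test in limma, so the share of forkhead pairs was near the background. The foxq1 ratio had an adjusted p of 5.27e-06, and no alternative setting or leave-out lifted it above 0.00133.

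In libraries A, B and C the log2 ratio of foxq1 was 3.99, 2.67 and 3.14 at 0 mpa, 3.19, 3.44 and 3.63 at 60 mpa and 2.10, 2.34 and 2.07 at 3 hpa. It was 0.67, 1.49 and 1.08 at 6 hpa, 0.69, 0.90 and 0.94 at 1 dpa and 0.69, 0.27 and 0.64 at 3 dpa. At 7 dpa it was -0.53 and -0.77 in A and B and 1.58 in C, which rests on 1 read of foxq1.L. From 3 hpa on, every library lay below all 3 of 0 mpa. Library 7 dpa C does not count in this, as 1 read cannot give a log2 ratio above 1.58 with 0.5 read added to each copy. Against 0 mpa the weighted ratio changed by -2.21 ± 0.52 (SE) at 6 hpa, -2.66 ± 0.49 at 3 dpa and -3.86 ± 0.51 at 7 dpa.

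**Figure D3:**
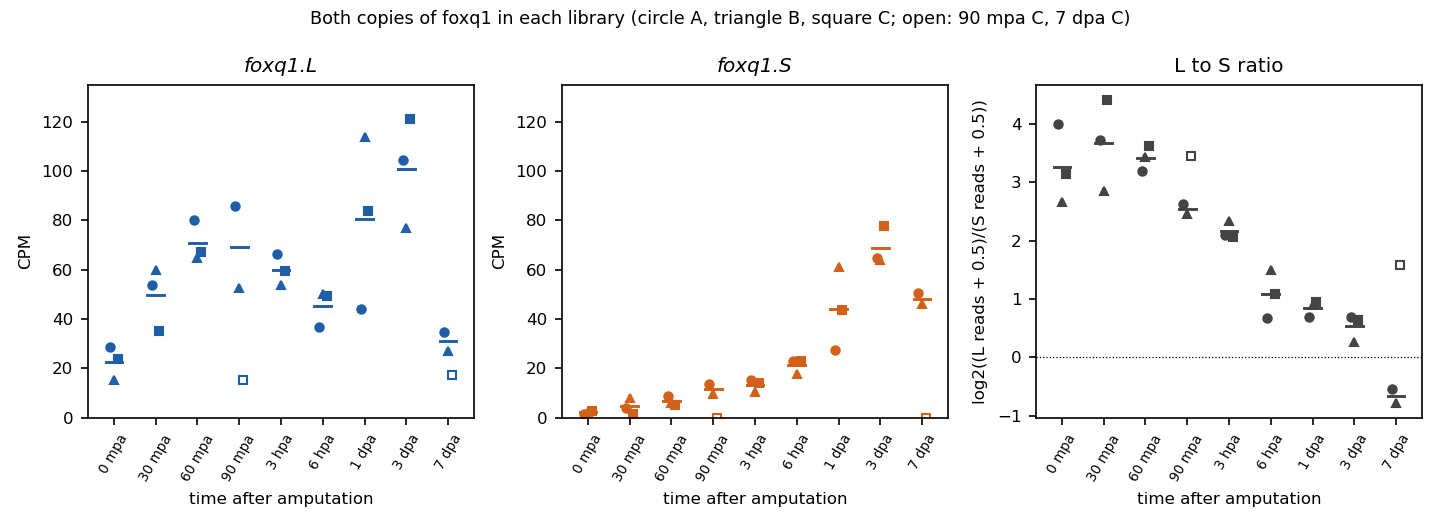
CPM of foxq1.L (left) and foxq1.S (centre) and the log2 ratio of their reads (right) in each library at each time. Circles, triangles and squares are libraries A, B and C, open symbols are the shallow 90 mpa C and 7 dpa C, and lines are means of the filled points. The S copy goes from 1.68 to 2.59 CPM at 0 mpa to 63.8 to 77.5 CPM at 3 dpa, and the ratio goes from 2.67 to 3.99 at 0 mpa to below 0 in 7 dpa A and B.

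In RefSeq's annotation of assembly v10.1, foxc1, foxf2 and foxq1 lie next to each other with no other protein-coding gene between them, on both subgenomes. The neighbours of foxq1 did not share its calls. Foxc1, a regulator of vessel and head mesenchyme, was called in the joint test as foxc1.L (adjusted p = 0.0293) and at no single time. That joint call was lost in 9 of 27 leave-outs of a library, with an adjusted p of 0.0527 to 0.132, namely without 30 mpa A or C, 60 mpa A, 3 hpa A, B or C, 6 hpa A, or 7 dpa A or B. Its smallest p in a comparison of times was at 7 dpa, at 19.0, 22.5 and 0 CPM against 8.17, 5.04 and 7.99 CPM (log2 fold change 1.42 ± 0.59, adjusted p = 0.153). The copy foxc1.S was at 5.05, 7.82 and 4.53 CPM at 0 mpa and 2.49, 2.41 and 2.35 CPM at 3 hpa (adjusted p = 0.586). The gene foxf2.S went from 50 reads at 0 mpa (29, 19 and 2 in A, B and C) to 2 at 3 hpa. In pooled reads that was 27.6 times lower (counting interval 7.26 to 234). The groups overlapped, at 0.43 CPM in 0 mpa C and 0.45 CPM in 3 hpa A, and the change did not pass (adjusted p = 0.13).

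Foxc2, which acts in lymphatic vessels and somite mesoderm, was called higher late. The copy foxc2.S stood at 12.3, 22.7 and 21.8 CPM at 0 mpa, 69.6, 89.4 and 44.7 CPM at 3 dpa and 76.7, 79.9 and 0 CPM at 7 dpa. All libraries of both later times but 7 dpa C lay above 0 mpa. For foxc2.S, those of 30 mpa (32.4, 23.6 and 28.6 CPM) and 60 mpa (27.2, 28.9 and 35.7 CPM) did too, without a call. Its log2 fold change was 1.84 ± 0.42 at 3 dpa (adjusted p = 0.00143) and 1.85 ± 0.43 at 7 dpa (0.00188). The copy foxc2.L was at 3.36, 5.29 and 8.63 CPM at 0 mpa and 13.7, 34.1 and 12 CPM at 3 dpa, and its call (log2 fold change 1.78 ± 0.60, adjusted p = 0.0482) was lost without any single library of the comparison (0.0502 to 0.374), without the 5 shallow or less complex libraries (0.117), with DESeq2 (0.0505), with RLE scaling (0.0521), with no filter on low counts (0.0599) and with the 2 times fitted alone (0.0553). Of 13 alternatives 12 lost it. At 30 mpa foxc2.L was at 16.0, 22.4 and 13.8 CPM, all above 0 mpa, without a call.

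Foxd1 and foxd2, related genes of stromal and paraxial mesenchyme, moved in opposite directions. Foxd1, which in the mouse marks the stroma of the developing kidney, stood as foxd1.S at 2.16, 0.756 and 4.1 CPM at 0 mpa, 15.3, 15.3 and 21.1 CPM at 90 mpa and 12.7, 17.7 and 17.0 CPM at 3 hpa. Later it was at 23.8, 26.5 and 11.6 CPM at 3 dpa and 31.0, 28.4 and 0 CPM at 7 dpa. Between these times, at 6 hpa and 1 dpa, it was at 3.27 to 12.6 CPM and not called.

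The log2 fold change of foxd1.S was 3.11 ± 0.63 at 3 dpa (adjusted p = 0.000314) and 3.48 ± 0.65 at 7 dpa (8.4e-05), both kept in every leave-out. It was 2.79 ± 0.64 at 90 mpa (adjusted p = 0.0046) and 2.72 ± 0.62 at 3 hpa (0.0028), and without 0 mpa B these became 0.0704 and 0.0572. The copy foxd1.L, at 1.44, 0.252 and 4.32 CPM at 0 mpa, was at 16.4, 21.0 and 0 CPM at 7 dpa (log2 fold change 3.04 ± 0.77, adjusted p = 0.00545), a call lost without 0 mpa B (0.0606) or 7 dpa B (0.0581).

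Foxd2, a gene of somite and head mesenchyme, was lower between 90 mpa and 3 dpa. Its copy foxd2.S was at 36.8, 35.5 and 34.8 CPM at 0 mpa and still at 34.0, 32.1 and 29.9 CPM at 60 mpa. It stood at 17.3, 6.2 and 3.02 CPM at 90 mpa, 7.24, 3.73 and 8.41 CPM at 3 hpa and 7.03, 11.9 and 6.55 CPM at 6 hpa. The groups did not overlap 0 mpa at these 3 times, and at 7 dpa libraries A and B were back at 27.4 and 33.8 CPM.

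At 3 hpa foxd2.S fell by 2.46 ± 0.49 on the log2 scale (adjusted p = 0.000425), kept in every leave-out. It fell by 2.03 ± 0.50 at 6 hpa (adjusted p = 0.00701), lost without 6 hpa A (0.0656), and by 1.74 ± 0.47 at 1 dpa (0.0171), lost without 0 mpa A (0.0578), 0 mpa B (0.0597), 1 dpa B (0.109) or 1 dpa C (0.0836). The fall at 90 mpa (1.77 ± 0.50 with an adjusted p of 0.031 by edgeR) was lost in 5 of the 6 leave-outs, at 0.0598 to 0.159.

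The copy foxd2.L was at 22.6, 45.1 and 28.5 CPM at 0 mpa and 11.5, 2.93 and 7.65 CPM at 3 dpa, where it fell by 2.11 ± 0.54 (adjusted p = 0.00634). This was lost without 0 mpa B (0.0608) or 3 dpa B (0.0511). At 90 mpa (adjusted p = 0.0244) it was lost without 0 mpa B (0.149) or 90 mpa B (0.0978), and at 3 hpa (0.0488) in all 6 leave-outs (0.0527 to 0.328). The L to S ratio of foxd2 did not change (adjusted p = 0.613), with both copies low at the same times.

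Foxf1, a gene of visceral mesoderm that responds to Hedgehog in the mouse, was not called. The copy foxf1.L was at 6.01, 3.03 and 4.75 CPM at 0 mpa and 22.3, 14.4 and 0 CPM at 7 dpa (log2 fold change 1.82 ± 0.83, adjusted p = 0.213), and foxf1.S at 1.2, 2.27 and 1.30 against 7.71, 9.28 and 0 CPM (2.25 ± 1.18, adjusted p = 0.318). In both copies libraries A and B of 7 dpa lay above 0 mpa and the shallow C held no read. Of 16 tested Hedgehog pathway genes, a list of ligands, receptors and Gli factors, 3 were higher at 7 dpa and none lower. Among them was shh.L, which rose by a log2 fold change of 2.51 ± 0.44 (adjusted p = 3.63e-05). At 3 hpa, 6 hpa and 3 dpa 3 were higher and none lower too. The gene gli2.L was higher at 3 hpa (log2 fold change 2.11 ± 0.365, adjusted p = 3.58e-05). Foxl1.S, a gene of gut mesenchyme, had 57 reads in all and was not tested. It is the neighbour of foxc2.S in the same annotation, with no protein-coding gene between them.

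**Figure D4:**
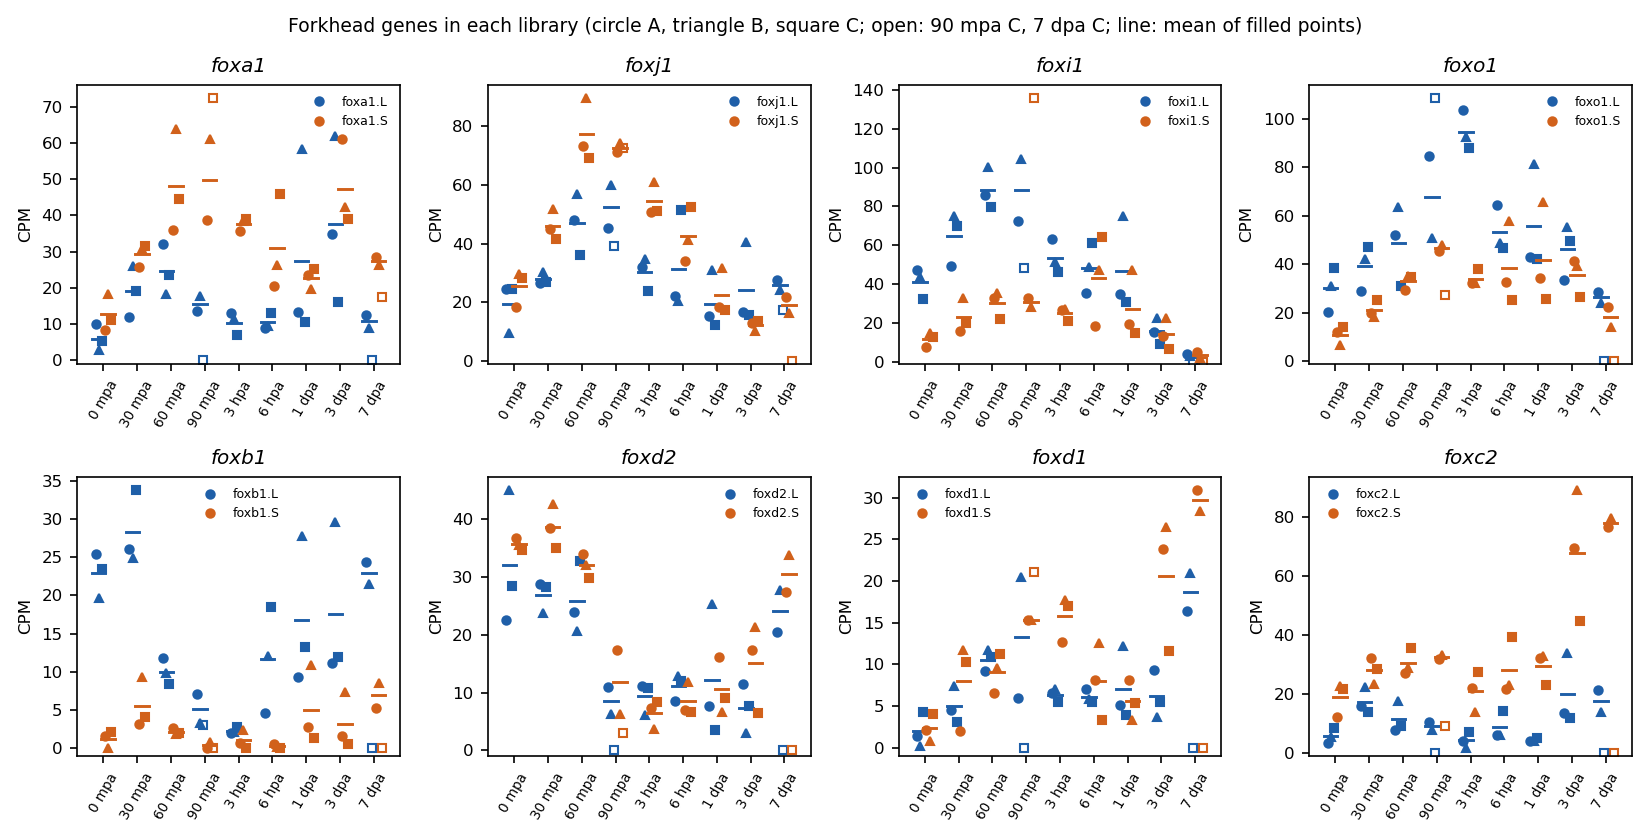
CPM in each library at each time for both copies of 8 forkhead genes, with .L in blue and .S in orange. Circles, triangles and squares are libraries A, B and C, open symbols are the shallow 90 mpa C and 7 dpa C, and lines are means of the filled points. Foxd2 and foxb1.L dip around 3 hpa, whereas both copies of foxd1 are highest at 7 dpa in libraries A and B, and foxc2.S is highest at 3 dpa in B and at 7 dpa in A.

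Of the 14 forkhead genes placed with the nervous system and neural crest, 7 were tested and 3 changed in the joint test. These were foxb1.L, foxd3.S and foxe1.S, the last a thyroid and pharynx gene placed here by the grouping. Foxb1, a gene of the developing hindbrain, spinal cord and hypothalamus, fell early and was near its starting level by 7 dpa. The copy foxb1.L stood at 25.5, 19.7 and 23.5 CPM at 0 mpa, 26.1, 24.9 and 33.8 CPM at 30 mpa and 11.8, 9.82 and 8.40 CPM at 60 mpa. At 90 mpa it was at 7.12, 3.29 and 3.02 CPM and at 3 hpa at 2.04, 2.19 and 2.74 CPM. It was at 9.33 to 27.8 CPM at 1 dpa and at 24.4 and 21.5 CPM in libraries A and B of 7 dpa.

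The fall of foxb1.L was 3.28 ± 0.57 on the log2 scale at 3 hpa (adjusted p = 3.59e-05), kept in every leave-out. At 90 mpa it fell by 2.21 ± 0.57 (adjusted p = 0.0164), lost without 0 mpa A (0.0597) or 90 mpa B (0.106). At 60 mpa, where the groups did not overlap either, it was not called. The copy foxb1.S was at 0 to 2.16 CPM at 0 mpa and at most 2.41 CPM in any library of 90 mpa and 3 hpa, and was not called (joint adjusted p = 0.0666). Of 23 tested neural genes, 1 was higher and none lower at 3 hpa, with a median log2 fold change of -0.44.

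Foxd3, which keeps neural crest cells in a progenitor state, was called lower at 1 dpa as foxd3.S, at 7.50, 12 and 6.1 CPM against 20.4, 39.6 and 19.6 CPM. The groups did not overlap, and foxd3.S fell by 1.64 ± 0.49 on the log2 scale (adjusted p = 0.0362). The call was lost without 0 mpa A (0.0517), 0 mpa B (0.28), 1 dpa A (0.115) or 1 dpa C (0.148). The copy foxd3.L was at 8.41, 9.33 and 19.4 CPM at 0 mpa and 6.67, 0 and 2.68 CPM at 1 dpa and was not called (adjusted p = 0.2). Of 29 tested neural crest genes 6 were lower and 1 higher at 1 dpa, with a median log2 fold change of -0.54. The summed level of the list was 945.4 to 1056 CPM at 0 mpa and 917.9 to 1145 CPM at 1 dpa. At 3 hpa the crest factor gene snai2 was lower in both copies (snai2.L by 2.50 ± 0.43, adjusted p = 3.52e-05). The copy foxd3.S was at 11.3, 5.04 and 14.5 CPM at 3 hpa and 11.8, 7.22 and 10.9 CPM at 6 hpa. All of these lay below its 0 mpa range, without a call.

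Foxe1, a thyroid and pharynx gene, was called in the joint test as foxe1.S (adjusted p = 0.00887) on uneven reads. At 0 mpa all 23 of its reads came from library A, at 5.53 CPM. It was at 0 to 0.531 CPM at 60 mpa and 5.14, 13.7 and 8.05 CPM at 3 dpa, and no single time was called. The copy foxe1.L had 69 reads and was not tested. The other tested genes of this class were not called, such as foxr1.L at 0.905 to 2.85 CPM at 3 hpa against 2.16 to 5.40 CPM at 0 mpa. Foxh1.2.L, a copy of the gene for the Smad partner of Nodal signalling, had 137 reads and was not called.

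Of the 12 forkhead genes of multiciliated cells and ionocytes, 9 were tested and 3 changed in the joint test. Foxj1, which switches on the genes of motile cilia, rose early as foxj1.S. It stood at 18.5, 29.5 and 28.3 CPM at 0 mpa, 45.0, 51.9 and 41.4 CPM at 30 mpa, 73.3, 89.7 and 69.1 CPM at 60 mpa and 71.2, 74.2 and 72.5 CPM at 90 mpa. The groups were apart at all 3 times. By 3 dpa it was at 12.9, 10.1 and 13.7 CPM, below the 0 mpa range, and at 7 dpa at 21.8, 16.2 and 0 CPM.

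The log2 fold change of foxj1.S was 1.60 ± 0.36 at 60 mpa (adjusted p = 0.00466) and 1.51 ± 0.36 at 90 mpa (0.00772). The first was lost without 0 mpa A (0.115) or 60 mpa B (0.0515) and the second without 0 mpa A (0.096), while the joint test had an adjusted p of 3.09e-08. The copy foxj1.L was at 24.5, 9.58 and 24.4 CPM at 0 mpa and 45.4, 59.9 and 39.3 CPM at 90 mpa, where the groups did not overlap but the gene did not pass (log2 fold change 1.34 ± 0.43, adjusted p = 0.0734). The L to S ratio of foxj1 changed over the 9 times (adjusted p = 0.0173), with a log2 ratio of -0.31 at 0 mpa, -0.86 at 3 hpa and 0.85 at 3 dpa. This call was lost without 0 mpa C (0.0505), without the 5 shallow or less complex libraries (0.0941) and without the weights by read number (0.23).

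Other genes of multiciliated cells were not called at 60 mpa, although their summed level was above its 0 mpa range. Of 32 tested genes of cilia assembly and motility, none was called at 60 mpa and 1 was lower at 90 mpa, with median log2 fold changes of -0.04 and 0.17. At 3 dpa 10 were lower and none higher, with a median log2 fold change of -1.52 beside 0.05 over all genes, and at 7 dpa 5 were lower. The tektin gene tekt3.L, a part of the axoneme, was at 22.8 ± 4.31 CPM at 0 mpa and 3.06 ± 1.79 CPM at 3 dpa (adjusted p = 0.000124). The summed level of the list was 1165 to 1471 CPM at 0 mpa, 1556 to 1805 CPM at 60 mpa and 933.3 to 1433 CPM at 3 dpa. Of the list, dnah11.L, dnal1.L, gmnc.S, rfx3.L, rfx3.S and tekt2.L were at 0 at 3 dpa, and dnal1.L, gmnc.S and rfx3.S at 0 mpa too. Likewise dnah11.L was at 0 at 30, 60 and 90 mpa, 6 hpa and 1 dpa, and rfx3.L at 3 hpa, 6 hpa and 1 dpa. Only tekt2.L was at 0 at 3 dpa alone.

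Foxi1, the regulator of ionocytes, fell late as foxi1.L. This copy foxi1.L stood at 47.3, 43.9 and 32.4 CPM at 0 mpa, 86.1, 100 and 79.9 CPM at 60 mpa and 35.0, 74.9 and 30.6 CPM at 1 dpa. It was at 15.3, 22.4 and 9.22 CPM at 3 dpa and 4.14, 2.90 and 0 CPM at 7 dpa. All libraries of 30, 60 and 90 mpa lay above 0 mpa without a call, and all libraries of 3 and 7 dpa lay below it.

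The copy foxi1.L fell by 3.56 ± 0.49 on the log2 scale at 7 dpa (adjusted p = 1.76e-07), kept in every leave-out. It fell by 1.4 ± 0.38 at 3 dpa (adjusted p = 0.0105), lost without 0 mpa A (0.0561) or 3 dpa C (0.0921). The step from 1 to 3 dpa (fell by 1.58 ± 0.38, adjusted p = 0.026) was lost without 1 dpa B (0.336), 3 dpa A (0.116) or 3 dpa C (0.218). The step from 3 to 7 dpa (fell by 2.16 ± 0.47, adjusted p = 0.00636) was lost without 3 dpa B (0.0811), 7 dpa A (0.0644) or 7 dpa B (0.197).

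The copy foxi1.S was called higher and not lower. It was at 7.45, 14.9 and 13.0 CPM at 0 mpa, 32.9, 28.3 and 136 CPM at 90 mpa and 18.5, 47.1 and 64.4 CPM at 6 hpa. The highest value at 90 mpa and at 6 hpa lay in the shallow library C. All libraries of 30 mpa (16.0, 32.6 and 19.8 CPM) and 60 mpa (33.0, 35.3 and 22.1 CPM) lay above 0 mpa too, without a call. So did those of 3 hpa (26.9, 27.4 and 21.1 CPM). The log2 fold change was 2.30 ± 0.55 at 90 mpa (adjusted p = 0.00873) and 1.33 without 90 mpa C (0.156), and the call was lost without 0 mpa A too (0.0815). At 6 hpa it was 1.84 ± 0.53 (adjusted p = 0.0356), lost in 5 of 6 leave-outs (0.0804 to 0.224), with RLE scaling (0.105) and with DESeq2 (0.0747). By 7 dpa foxi1.S was at 5.28, 1.74 and 0 CPM, below the 0 mpa range, without a call. The L to S ratio of foxi1 was not called over the 9 times (adjusted p = 0.085), but it was without 90 mpa C (0.0234), without 6 hpa A (0.0479) and without the 2 shallowest libraries (0.0367). At 3 dpa alone the log2 ratio was lower than at 0 mpa by a called change of -1.57 ± 0.46 (adjusted p = 0.0442 by limma over all pairs, 4.95% of which were called at 3 dpa).

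Genes of ionocyte function were low at the same late times as foxi1.L. Of 17 tested genes for proton pump subunits, carbonic anhydrases and ion transporters, 5 were lower at 3 dpa and 12 at 7 dpa, with none higher and median log2 fold changes of -1.20 and -2.35. The carbonic anhydrase gene ca2.S was at 87.0 ± 30.3 CPM at 0 mpa and 10.4 ± 6.03 CPM at 7 dpa (adjusted p = 3.78e-09). The summed level of the list was 690.5 to 1138 CPM at 0 mpa, 439.5 to 718.2 CPM at 3 dpa and 156 to 380 CPM at 7 dpa. At 7 dpa atp6v1c2.S and ca12.L were at 0, and atp6v1c2.S was at 0 at 0 mpa too. The anion exchanger slc4a1 is on both the ionocyte and the erythroid list, and 9 of 14 tested erythroid genes were lower at 7 dpa.

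**Figure D5:**
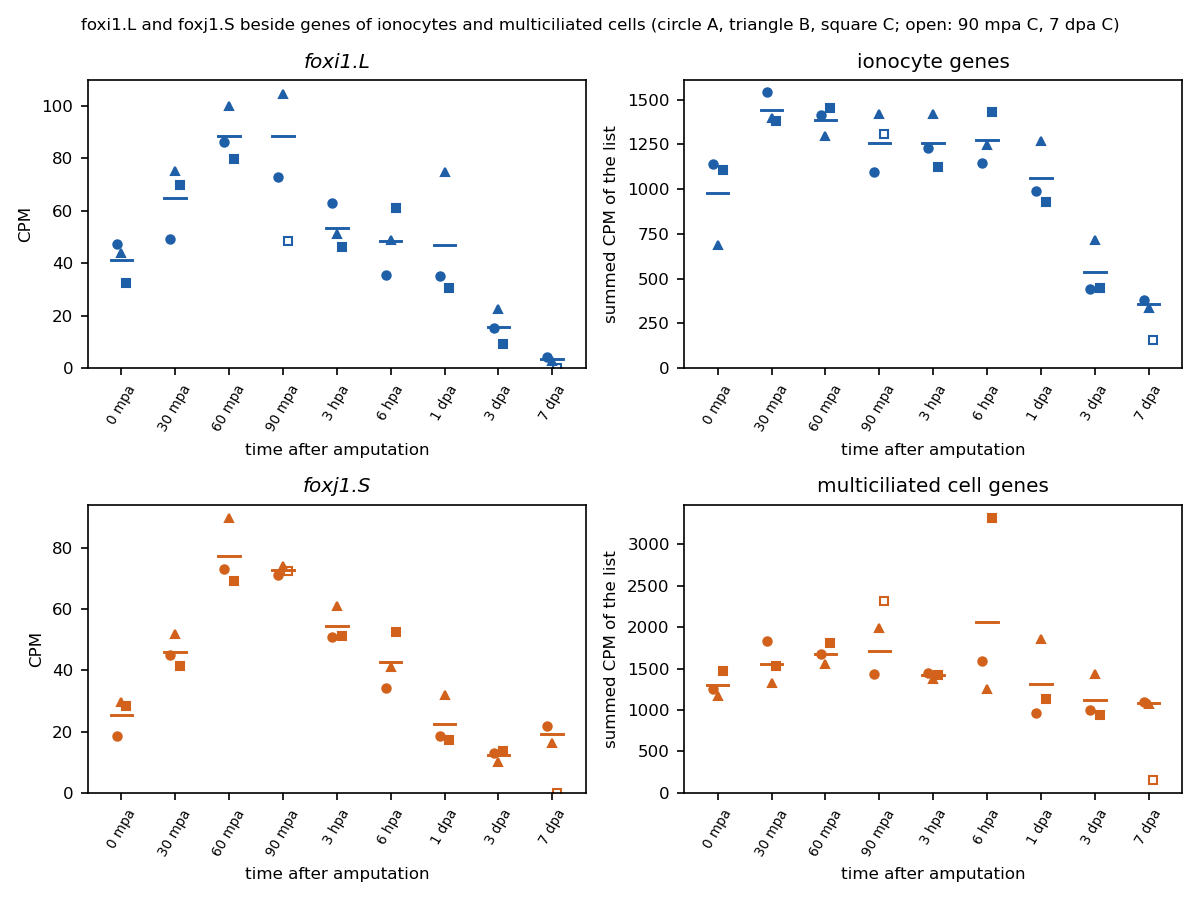
CPM of foxi1.L and foxj1.S (left) and summed CPM of the ionocyte and multiciliated cell lists (right) in each library at each time. Circles, triangles and squares are libraries A, B and C, open symbols are the shallow 90 mpa C and 7 dpa C, and lines are means of the filled points. Both upper panels are lowest at 7 dpa, while foxj1.S is highest at 60 and 90 mpa and the cilia list spans 1165 to 1471 CPM at 0 mpa and 1556 to 1805 CPM at 60 mpa.

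Foxi2, a relative of foxi1, was lower at 3 dpa as foxi2.L on few reads. It held 17, 11 and 12 reads in libraries A, B and C of 0 mpa and 1 read in all at 3 dpa, which is 52.2 times lower with a counting interval of 8.84 to 2110. The call (adjusted p = 0.0386) was lost without 0 mpa A (0.0823), 0 mpa B (0.0613), 0 mpa C (0.0538), 3 dpa A (0.125) or 3 dpa C (0.122). The copy foxi2.S held 12 reads at 0 mpa and was not called. Foxn4.L, of retinal and multiciliated cells, had no read at 0 mpa and 35 at 7 dpa. That is 10.7-fold higher against a floor of 3 reads over the group, with a lower limit of the counting interval of 8.22. The gene did not pass (adjusted p = 0.0695).

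Among the 8 tested genes of insulin, energy and stress control, both copies of foxo1 rose. Foxo1 turns on genes of fasting and stress when insulin signalling is low. The copy foxo1.L was at 20.4, 31.3 and 38.6 CPM at 0 mpa, 84.7, 50.8 and 109 CPM at 90 mpa and 104, 92.5 and 88.2 CPM at 3 hpa. By 7 dpa it was at 28.7, 24.2 and 0 CPM. All libraries of 90 mpa and 3 hpa lay above 0 mpa.

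The log2 fold change of foxo1.L was 1.65 ± 0.38 at 3 hpa (adjusted p = 0.00269), lost without 0 mpa A (0.0621), and 1.38 ± 0.39 at 90 mpa (0.0287), lost without 0 mpa A (0.192), 0 mpa B (0.106), 90 mpa A (0.0617) or 90 mpa C (0.0983). The copy foxo1.S stayed higher for longer. It was at 12, 6.55 and 14.0 CPM at 0 mpa, 45.6, 47.9 and 27.2 CPM at 90 mpa, 34.5, 65.6 and 25.9 CPM at 1 dpa and 41.4, 39.2 and 26.7 CPM at 3 dpa, with no overlap of 0 mpa.

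It was called higher at all 6 times from 60 mpa to 3 dpa, with log2 fold changes between 1.60 and 1.95. The call at 1 dpa (1.94 ± 0.42, adjusted p = 0.00157) was kept in every leave-out. The others were lost without 0 mpa B, where the adjusted p became 0.376 for 60 mpa, 0.0523 for 90 mpa, 0.139 for 3 hpa, 0.0668 for 6 hpa and 0.0551 for 3 dpa. At 60 mpa each other leave-out lost it too (0.0516 to 0.123), at 3 hpa the one without 3 hpa C (0.0536) and at 6 hpa the one without 6 hpa B (0.0904). Library 0 mpa B held the lowest foxo1.S value of all libraries but 7 dpa C. The L to S ratio of foxo1 was not called (adjusted p = 0.386).

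No other foxo or foxk gene was called. Foxo4.L was at 10.8, 14.9 and 5.40 CPM at 0 mpa and 31.2, 22.4 and 26.2 CPM at 3 hpa, where groups did not overlap and the adjusted p was 0.0722. Foxo3.L was at 35.8 to 48.4 CPM at 0 mpa and 51.8 to 65.3 CPM at 3 hpa (adjusted p = 0.768). Foxk2.L, which has the most reads of all forkhead genes and acts in energy metabolism, was at 193, 235 and 240 CPM at 0 mpa and within 178 to 402 CPM in every library, with no call (joint adjusted p = 0.998). Of 32 tested genes known as Foxo targets, 4 were higher and 1 lower at 3 hpa, with a median log2 fold change of 0.58 beside -0.02 over all genes, and at 7 dpa none was higher and 4 were lower. The median of the Foxo targets was 0.31 at 60 mpa and 0.20 at 90 mpa. It was -0.27 at 6 hpa, -0.37 at 1 dpa and -0.40 at 3 dpa. The copy foxo1.S was called higher at each of these times. The targets include trib1.S, a pseudokinase gene, at 12.2 ± 4.56 CPM at 0 mpa and 112 ± 6.00 CPM at 3 hpa (adjusted p = 1.92e-07).

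The cell cycle gene foxm1.S, an activator of mitotic genes, was not called at any time. It was at 28.1, 27 and 25.5 CPM at 0 mpa, 9.50, 12.4 and 31.6 CPM at 6 hpa, 16.0, 21.8 and 12.8 CPM at 1 dpa and 17.3, 35.3 and 25.5 CPM at 3 dpa. The value of 6 hpa C stood above the rest of its time, and without the 5 shallow or less complex libraries the 6 hpa change became a call (log2 fold change -1.29). Of 33 tested Foxm1 targets, such as plk1, cdc20 and the aurora kinase genes, 2 changed in the joint test, and at each of the 8 later times at most 1 was called. Their median log2 fold change was -0.50 at 3 hpa and 0.14 at 3 dpa.

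Of the 13 tested genes classed as broadly expressed, foxp2.L was called in the joint test (adjusted p = 0.032) and foxj3.L at 90 mpa. Foxj3.L, which in the mouse acts in muscle fibres and sperm, was at 8.65, 14.1 and 7.55 CPM at 0 mpa and 17.3, 22.3 and 103 CPM at 90 mpa. The value of 103 CPM came from the shallow library C, without which the log2 fold change of 1.98 ± 0.56 (adjusted p = 0.031) was 0.93 (0.381). The call was lost too without 0 mpa A (0.131) or 0 mpa C (0.124). All libraries of 30 mpa (15.6, 27.3 and 25.5 CPM) and 60 mpa (17.4, 32.1 and 17.2 CPM) lay above 0 mpa as well, without a call. So did those of 3 hpa (20.4, 17.7 and 24.2 CPM) and 1 dpa (26.3, 46.7 and 19.6 CPM). The copy foxj3.S was at 31.8, 24.8 and 72.5 CPM at 90 mpa and was not called (adjusted p = 0.122).

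Foxp2, a repressor known from neurons and lung, was at 4.81, 9.08 and 8.85 CPM at 0 mpa as foxp2.L, 13.3, 9.86 and 13.5 CPM at 3 hpa and 0.833, 4.89 and 3.72 CPM at 1 dpa. Its copy foxp2.S was at 20.4, 14.9 and 16.2 CPM, 15.8, 14.5 and 14.1 CPM and 13.7, 22.9 and 11.7 CPM at the same times. At 6 hpa foxp2.S was at 7.21, 3.73 and 7.64 CPM, below its 0 mpa range, without a call. That fall became a call under 3 alternatives and not under 10 (adjusted p 0.0221 to 0.467). The L to S ratio of foxp2 changed over the 9 times (adjusted p = 0.00403), with a log2 ratio of -1.11 at 0 mpa, 0.33 at 30 mpa, -0.26 at 3 hpa and -2.15 at 1 dpa. It was not called without the weights by read number (0.133). The joint call of foxp2.L itself was lost in 11 of 27 leave-outs of a library (adjusted p 0.0508 to 0.0861), namely without 30 mpa A or C, 60 mpa A or C, 3 hpa A, B or C, 1 dpa A or C, 3 dpa C or 7 dpa A, and without the filter on low counts (0.0611).

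The rest of the broadly expressed class had no call. Foxn3.L, of the DNA damage checkpoint, was at 77.4, 50.7 and 61.3 CPM at 0 mpa and 44.2, 46.0 and 62.6 CPM at 3 dpa. Foxp4.S, a repressor related to Foxp2, was at 199, 278 and 275 CPM at 0 mpa and 97.4, 119 and 181 CPM at 6 hpa, with no overlap of the groups and no call (log2 fold change -0.94 ± 0.36, adjusted p = 0.176). At 6 hpa foxp4.S was called lower with RLE scaling (0.0427), with DESeq2 (0.0086), without the 2 shallowest libraries (0.0107) and without the 5 shallow or less complex ones (5.15e-05). Its joint test (adjusted p = 0.0548) became a call under the same 4 alternatives (5.76e-05 with DESeq2), with no filter on low counts (0.0279) and in 5 of 27 leave-outs of a library (0.000713 to 0.046). Of all 22 forkhead genes with both copies tested, 7 had both copies called against 0 mpa at some time, 5 had 1 copy called and 10 had none. The same share was not computed over all pairs, so the 7 are not read as particular to forkhead genes. The 7 were foxa1, foxc2, foxd1, foxd2, foxi1, foxo1 and foxq1, and in foxi1 the copies were called in opposite directions at different times.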

How the data were processed

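RNA of 27 libraries (9 times, 3 libraries each) had been sequenced, per the labels' protocols, as paired reads of 76 bases after library preparation from 100 ng of total RNA with a Lexogen SENSE kit. The authors deposited read counts (whole numbers) of each gene in all 27 libraries, and a normalized signal in 25. The normalized signal equalled the deposited count divided by 1 factor per library, within a relative tolerance of 1e-06, and these factors equalled DESeq2's. It was used for that check alone. Tools named without roles in the submitters' processing notes are R 4.1.0, DESeq2 1.32.0, HTSeq 0.6.1p1 and STAR 2.7.9a. Which genome build, annotation or strand setting applied is not given in the sources used here. Reads of overlapping or antisense genes cannot be told apart, and reads of near-identical copies may have been split.

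Counts were tested in R 4.3.3 with edgeR 4.0.16 (TMM scaling, filterByExpr by group, robust quasi-likelihood fit of all 27 libraries with time as 9 groups). P-values were adjusted by Benjamini-Hochberg over the 22268 genes kept of 29776, and a gene was called at an adjusted p under 0.05. Fold changes are fitted log2 values with a prior count of 0.125 and their SE. CPM are reads per library total times TMM factor, scaled to 1000000, and pooled CPM uses summed reads and totals. The log2 L to S ratio, with 0.5 read added to each copy and weights by reads, was tested with limma 3.58.1 over 6185 pairs with a mean of at least 10 reads per library. Intervals are exact at 95% and cover counting error only. The scripts were tested on simulated counts.

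The forkhead genes, gene lists and tests were chosen with earlier results of these data known. The text names every forkhead gene called in any test, its other copy, and the best counted gene of each class letter without a call, apart from an item that is not reported here. The genes foxa2.L, foxa4.L, foxf1.S, foxf2.S, foxn4.L, foxo3.L, foxo4.L and foxp4.S were added after their values were seen. Of the other lists up to 2 genes with the smallest joint p were eligible. All 76 symbols matched RefSeq's gene table (assembly v10.1), used for names and neighbours only. Alternatives were RLE scaling, DESeq2 1.42.0, no filter, a block by library letter, each comparison fitted alone, other ratio settings, and fits without each library in turn, without the 2 shallowest (90 mpa C, 7 dpa C) and without these, 6 hpa C, 1 dpa B and 3 dpa B.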

Additional observations from a re-analysis of the deposited data

How the results depend on the processing

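With RLE scaling, no filter on low counts or DESeq2, no forkhead count moved by over 1.5 times except that DESeq2 called 2 genes from 1 to 3 dpa in place of 1. Without the 5 shallow or less complex libraries the count was 30 in the joint test (19 with all), 3 for 30 mpa (0), 13 for 60 mpa (4), 16 for 3 hpa (9), 13 for 6 hpa (4) and 11 for 7 dpa (5). Without the 2 shallowest it was 10 at 6 hpa and 3 from 1 to 3 dpa. With the 2 times fitted alone it was 8 at 60 mpa, 0 at 90 mpa (12), 16 at 3 hpa, 9 at 7 dpa, and 0 from 1 to 3 dpa and from 3 to 7 dpa, the last 2 with 8 genes each at an unadjusted p under 0.05. Leaving out 1 library gave 18 to 27 in the joint test. Against 0 mpa it gave 0 for 30 mpa, 2 to 3 for 60 mpa, 4 to 10 for 90 mpa, 5 to 8 for 3 hpa, 2 to 4 for 6 hpa, 3 to 5 for 1 dpa, 7 to 10 for 3 dpa and 4 to 6 for 7 dpa. Between later times it gave 0 from 6 hpa to 1 dpa, 0 to 2 from 1 to 3 dpa and from 3 to 7 dpa, and 2 to 4 changed ratios. Without weights 1 ratio (foxq1) changed in place of 3. Fits without libraries tested other numbers of forkhead genes, such as 60 in place of 56 without the 5 shallow or less complex ones. The shares called over all genes under these settings are not given here. The counts are therefore not read as particular to forkhead genes. The causes were not tested. Of 450 values of named genes under alternatives, 401 kept their direction and side of the threshold, 41 lost and 7 gained a call, and foxe1.S at 60 mpa, between -6.10 and 2.80 over the leave-outs, reversed to 2.80 without 0 mpa A, the single 0 mpa library with reads of it. RLE scaling moved the median of all genes by -0.102 for 60 mpa, -0.104 for 3 hpa, -0.145 for 6 hpa and -0.124 for 1 dpa. Same-letter libraries deviated together with r over 0.1 in 8 of 108 pairs (-0.149 to 0.198). Libraries of different letters were not compared, so this cannot tell whether a letter marks a shared clutch or day. The replicate block called 19 genes in the joint test, the same 19. The depth of 90 mpa C and 7 dpa C limits all values at those times.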
